A study of Homo sapiens with 8 samples.

Results

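The comparison described here is that of COV318-MGP spheres, labelled OCSC (ovarian cancer stem cells), with adherent COV318-MGP cells, labelled bulk. It covers 2 of the 8 RNA-seq libraries of the study and all 20339 genes of the count table, and it asks what sphere culture changes in the MGP-overexpressing population. COV318 is an established line of high-grade serous ovarian carcinoma. COV318-MGP is a puromycin-selected pool that received an MGP cDNA through a lentivirus packaged in HEK293T cells, and COV318-CTR is the matching pool with the empty vector. MGP, matrix Gla protein, is a secreted vitamin K-dependent inhibitor of calcification (ENSG00000111341.10, chromosome 12, 14880864 to 14885857, minus strand, hg38, GENCODE 44). All 4 COV318 libraries were from passage 18. Bulk cells grew attached in DMEM with fetal bovine serum. OCSC were cells dissociated from second-generation spheres, which grew without attachment on poly-HEMA in serum-free DMEM/F-12 with B27, EGF and FGF2. Attachment, basal medium, serum, supplements, growth factors and the dissociation of spheres therefore changed together between the libraries compared, and their parts cannot be told apart. OVCAR3-CTR and OVCAR3-MGPKO, a second ovarian carcinoma line and its CRISPR knockout of MGP (passage 4), are used only for values beside those of COV318-MGP. MGP had 0 and 1 counts in OVCAR3-CTR bulk and OCSC and 0 and 2 in OVCAR3-MGPKO, so its level did not separate the knockout from its control.

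Each condition had 1 library. No p-value is therefore given, and the intervals in brackets after a ratio are exact 95% Clopper-Pearson intervals that cover counting error only, with no part for biological variation. The adherent library held 29814396 counts on genes and the sphere library 13259037, within the range of 12294591 to 37393919 over the 8 libraries. Normalized counts are counts over the library's size factor, 1.82 for bulk and 0.699 for OCSC. A gene was counted when its mean normalized count over both libraries was at least 50, and it was called when its log2 ratio of OCSC to bulk, taken on normalized counts plus 1, was at least 1 in size.

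The COV318-MGP libraries went against the ovarian origin of their label. PAX8 and SOX17, transcription factors of the Müllerian lineage, and KRT7 had 0 counts in both COV318-MGP libraries, which allows up to 3 counts in each, whereas PAX8 had 6778 counts in COV318-CTR bulk and 3342 in COV318-CTR OCSC. Of the 13 Müllerian markers, 3 were counted in COV318-MGP (KRT8, KRT18 and EMX2) and 11 in COV318-CTR. Over all genes, adherent COV318-MGP and COV318-CTR cells had a rank correlation of 0.788. Adherent COV318-MGP cells had from 0.789 (OVCAR3-CTR OCSC) to 0.807 (OVCAR3-MGPKO bulk) with the OVCAR3 libraries and 0.973 with their own spheres. Adherent OVCAR3-CTR and OVCAR3-MGPKO cells had 0.967 with each other. These values describe genes that are not independent. In 201 genes both COV318-MGP libraries had at least 100 normalized counts and both COV318-CTR libraries at most 3 counts, and the reverse held for 317 genes. By the same rule COV318-CTR against OVCAR3-CTR gave 204 genes and the reverse 120. OVCAR3-CTR against OVCAR3-MGPKO gave 0 genes and the reverse 2. Of 8 genes chosen to mark the HEK293 lineage, 5 were counted in COV318-MGP, among them NEFL, NEFM, INA and LIN28B, and 2 in COV318-CTR, LIN28B and DPPA4. The summed normalized counts of the list were not higher in COV318-MGP, with 5731 in bulk and 5494 in OCSC against 12833 and 6503 in COV318-CTR, where DPPA4 had 19621 and 3614 counts. LIN28B had 2730.1 normalized counts in adherent COV318-MGP cells and 2236 in adherent COV318-CTR cells. NEFL, a neurofilament subunit, had 2564 counts in adherent COV318-MGP cells, 857 in their spheres and 0 in either COV318-CTR library. Of 8 markers each of leukocytes, endothelium and mesothelium, 1, 1 and 0 were counted in COV318-MGP, and of 11 fibroblast markers 3, of which COL1A1 was called higher in spheres and the receptor PDGFRA lower, with 222 and 42 counts. The identity of the cells was not tested. Both libraries compared below carry this profile, so the ratios between them are within it, while each comparison with COV318-CTR rests on cells whose expression stood that far apart.

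Sphere culture selects for cells that survive and divide without attachment, and it is widely used to enrich stem-like cells. EGF and FGF2 act through receptor tyrosine kinases that switch on the RAS-ERK cascade. ERK activity is followed within minutes by transcription of immediate early genes such as FOS and EGR1, through serum response factor and its ETS partners, and later by genes that damp the cascade, among them the DUSP phosphatases, the Sprouty proteins and the ETV4 and ETV5 factors. Attachment and spreading feed the actin-controlled factors YAP, TAZ and SRF, whose targets include CCN1 and CCN2. Cells inside a sphere receive less oxygen, a condition under which HIF factors induce glucose transport and glycolysis.

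Of 12262 genes counted, 857 (6.99%) were called higher in OCSC and 627 (5.11%) lower. The median log2 ratio over the counted genes was 0.01, and 60.9% of them differed by less than 0.5. For 552 genes the whole interval lay above 1 and for 264 it lay below -1. The balance of the calls depended on the scaling: 57.8% of calls were higher with the size factors used here, 43.9% with edgeR's TMM factors, which shifted all ratios by -0.12, and 33.6% with plain library totals (CPM), which shifted them by -0.21. Of 124 named genes that were called, 14 called higher lost the call with the TMM factors, all with ratios near 1, among them FASN, COL1A1, P4HA1, LOXL2, DSP, JUP, CDT1, SLC2A1, HSPA5, FTL, BCL2, TNFAIP3 and RPLP1. The plot of ratio against expression level shows that the large ratios among higher genes stand well clear of such shifts.

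**Figure D1:**
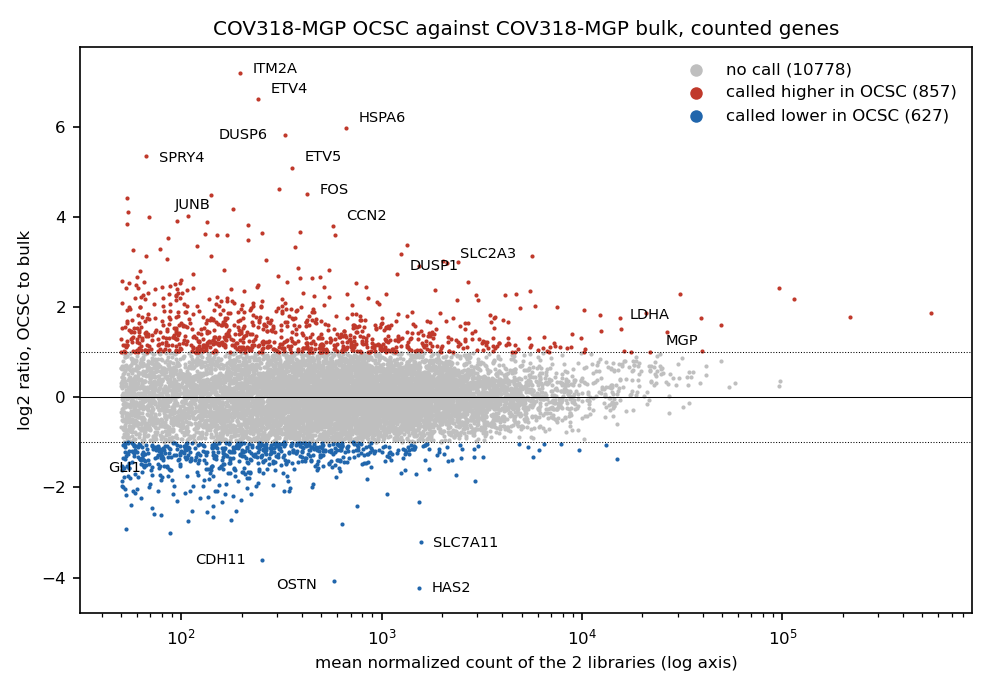
Each point is a counted gene, with the mean normalized count of both COV318-MGP libraries on a log axis and the log2 ratio of OCSC to bulk on the other. Dotted lines mark the call at 1 in size. The 857 genes called higher reach a ratio of 7.21 for ITM2A and the 627 called lower reach -4.22 for HAS2.

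The 10 genes called higher whose interval lay farthest from no change were ITM2A, ETV4, HSPA6, DUSP6, ETV5, SPRY4, RNA45SN4, FOS, CGA and JUNB, and 6 of them are ERK feedback or immediate early genes. ITM2A, a membrane protein of differentiating cells, had 3 counts in adherent cells against 274 in spheres (1.65 and 392.2 normalized), a log2 ratio of 7.21 (6.33 to 10.18). CGA encodes the shared alpha chain of the glycoprotein hormones and had 20 counts in adherent cells against 189 in spheres (11 and 271 normalized), a ratio of 4.50 (3.95 to 5.36). ITM2A was at the floor of 3 counts in adherent cells, and CGA was above it. HSPA6, an inducible cytosolic chaperone whose pseudogene HSPA7 is near-identical and can share reads, had 36 counts in adherent cells against 914 in spheres (19.8 and 1308 normalized). RNA45SN4 is a copy of the ribosomal RNA precursor, and its 42 and 415 counts (23.1 and 594 normalized) are uncertain because near-identical copies share reads. ITM2A, CGA, HSPA6 and RNA45SN4 were low in adherent cells and passed the filter on the mean only through their sphere counts. For each of them a higher call followed from passing it.

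The 10 genes called lower by the same rule were HAS2, OSTN, CDH11, SLC7A11, FLRT3, BRINP3, ASNSP1, LRRC8D, IGFBP5 and DGAT2. HAS2, the synthase of hyaluronan in the pericellular coat, had 5289 counts in adherent cells against 108 in spheres (2909 and 155 normalized), a log2 ratio of -4.22 (-4.52 to -3.96). OSTN, which encodes the secreted peptide osteocrin, had 1991 counts in adherent cells against 45 in spheres (1095 and 64.4 normalized) and a ratio of -4.07 (-4.55 to -3.66). CDH11, a cadherin of mesenchymal cells, had 848 counts in adherent cells against 26 in spheres (466 and 37.2 normalized) and a ratio of -3.61 (-4.27 to -3.09). Each of these had 0 to 4 counts in either COV318-CTR library, so the changes could be read in COV318-MGP alone. IGFBP5, a binding protein of insulin-like growth factors, fell from 2554 to 509.6 normalized counts, and FLRT3, an adhesion protein that binds FGF receptors, fell from 1115 to 157 normalized counts. ASNSP1 is a pseudogene of ASNS and shares sequence with it, which makes its 562 and 32 counts uncertain. BRINP3 had 18.6 normalized counts in spheres and passed the filter only through its adherent counts, so a lower call followed from passing it.

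MGP itself was abundant in both cultures. It had 40393 counts in adherent cells against 28694 in spheres (22215 and 41076 normalized), a log2 ratio of 0.89 (0.86 to 0.91), which is 1.85-fold higher in OCSC and under the call. In COV318-CTR, MGP had 1 count in adherent cells and 0 in spheres. Of 12 counted genes for MGP, the vitamin K cycle and the TAM receptors, 0 were called in either direction, at a median of -0.14. GGCX, the carboxylase that acts on MGP, had a ratio of -0.34 (-0.44 to -0.23).

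GLI1, the transcription factor that reads out Hedgehog signaling, was lower in COV318-MGP spheres than in adherent cells. It had 181 counts in adherent cells against 32 in spheres (99.5 and 45.8 normalized), a log2 ratio of -1.10 (-1.71 to -0.57). HHIP, an inhibitor that Hedgehog signaling induces, fell alike, with 355 counts in adherent cells against 63 in spheres (195 and 90.2 normalized) and a ratio of -1.11 (-1.52 to -0.72). PTCH1, the receptor and a classical target, did not pass the call, at 0.37 (0.18 to 0.56), nor did the signal transducer SMO, at -0.70 (-0.85 to -0.56). GLI3, a factor that can act as activator or repressor, was called higher at 1.46 (1.25 to 1.68). Of 14 counted genes of the pathway 2 were called higher and 2 lower, at a median of 0.13, against 6.99% and 5.11% of all genes. In COV318-CTR the counts of GLI1 were 11 and 4, under the filter.

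ERK feedback genes held 4 of the 10 places in the list of genes called higher. Of 21 listed, 16 were counted, 11 were called higher and 0 lower, against 6.99% of all genes called higher, and their median was 1.65 against 0.01. DUSP6, the phosphatase that inactivates ERK (chromosome 12, 89347235 to 89352501, minus strand), had 19 counts in adherent cells against 454 in spheres (10.4 and 649.9 normalized), a log2 ratio of 5.83 (5.30 to 6.70). SPRY4, a Sprouty inhibitor of receptor signaling, had 4 counts in adherent cells against 92 in spheres (2.20 and 132 normalized) and a ratio of 5.37 (4.50 to 7.81). ETV4, an ETS factor downstream of FGF receptors, had 7 counts in adherent cells against 335 in spheres (3.85 and 479.6 normalized) and a ratio of 6.63 (5.90 to 8.29). ETV5, its close relative, had 35 counts in adherent cells against 487 in spheres (19.2 and 697 normalized) and a ratio of 5.11 (4.68 to 5.72). DUSP6, SPRY4, ETV4 and ETV5 thus had at most 35 counts in the deeper adherent library and at least 92 in the sphere library. The filter is on the mean of both libraries, so these genes passed it only through their sphere counts. For genes so low in adherent cells, a higher call followed from passing the filter. With no filter on low counts, 11 of 21 members were called higher and 0 lower, at a median of 1.18. Without that filter 2181 of all 20339 genes were called higher and 2032 lower. DUSP5, a nuclear ERK phosphatase, had 165 counts in adherent cells against 473 in spheres (90.8 and 677 normalized) and a ratio of 2.89 (2.64 to 3.16). Under the TMM factors 11 members were again called higher, with 1 lower. The receptors and ligands of the pathway did not share the pattern: of 11 counted, 0 were called higher and 2 lower. EGFR had a ratio of 0.08 (-0.11 to 0.26) and FGFR1 one of 0.05 (-0.06 to 0.16), both close to no change. FGF2 and the receptor ERBB4 were the 2 called lower, at -1.01 and -1.04.

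Immediate early genes were also higher in spheres. Of 16 counted members 13 were called higher and 0 lower, against 6.99% and 5.11% of all genes, with a median log2 ratio of 1.97. FOS, a subunit of the AP-1 factor, had 63 counts in adherent cells against 569 in spheres (34.6 and 815 normalized), a ratio of 4.52 (4.18 to 4.95). JUNB, its partner, had 33 counts in adherent cells against 241 in spheres (18.1 and 345 normalized) and a ratio of 4.18 (3.72 to 4.82). EGR1, a zinc finger factor induced by serum and mitogens, had 29 counts in adherent cells against 177 in spheres (15.9 and 253 normalized) and a ratio of 3.91 (3.42 to 4.61). All 3 had fewer counts in the deeper adherent library than in the shallower sphere library. FOSB went from 12.7 to 120.2 normalized counts (ratio 3.15), ZFP36, which destabilizes such transcripts, from 9.90 to 104 normalized counts (ratio 3.27) and KLF4, also a pluripotency factor, from 104 to 292 normalized counts (ratio 1.47). MYC was the member with the lowest ratio, -0.65 (-0.83 to -0.48), and was not called. In each of the 13 genes called the whole interval lay above 1. FOS, JUNB, EGR1, FOSB and ZFP36 were low in adherent cells and passed the filter on the mean only through their sphere counts. For JUNB, EGR1, FOSB and ZFP36 a higher call followed from passing it. With no filter on low counts, 15 of 22 members were called higher and 0 lower, at a median of 1.55, beside 2181 and 2032 of all 20339 genes.

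The serum response element is the DNA site through which SRF drives this class of genes. EGR1 is shown as the promoter of a called member that holds the core used here. That core was 1 fixed string, the stretch in capitals below, and variants of it were not searched. Among RefSeq promoters (GRCh38.p14, 250 bases before to 50 after the start), 14 counted members had an entry and 1 of them, 7.14%, held an exact match to the core used here, on either strand, against 12 of all 35116 promoters, or 0.0342%. These shares are for the fixed string alone. They do not show how many promoters hold or lack a serum response element. In the promoter of EGR1 (chr5:138465229-138465528, plus strand) capitals mark the match, which begins 105 bases before the start. A close variant of the string lies shortly after it, in lower case, and was not taken by the search.
EGR1: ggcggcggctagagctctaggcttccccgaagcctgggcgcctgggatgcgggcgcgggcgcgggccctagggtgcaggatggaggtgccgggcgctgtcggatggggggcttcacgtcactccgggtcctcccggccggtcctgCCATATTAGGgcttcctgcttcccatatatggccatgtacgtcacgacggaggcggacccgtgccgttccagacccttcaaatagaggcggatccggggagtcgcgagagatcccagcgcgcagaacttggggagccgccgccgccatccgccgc

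The same genes lay at other levels in COV318-CTR. Of 15 counted in both populations 14 had a positive ratio in COV318-MGP and a negative one in COV318-CTR, and MYC was negative in both, at -0.65 and -1.38. In COV318-CTR 736 of 12276 counted genes (6.0%) were called higher and 826 (6.73%) lower. Of 17 immediate early genes counted there, 12 were called lower and 0 higher, at a median of -1.38. FOS had 6046 normalized counts in adherent cells and 2144 in spheres in COV318-CTR, a log2 ratio of -1.49 (-1.58 to -1.42). EGR1 had 1642 normalized counts in adherent cells and 404 in spheres, a ratio of -2.02 (-2.21 to -1.84). Adherent COV318-CTR cells therefore carried far more of both transcripts than adherent COV318-MGP cells, and the levels in spheres were closer. Of the 15 members counted in both populations, 14 were lower in COV318-MGP than in COV318-CTR in bulk, at a median log2 ratio of -2.78, and 7 were lower in OCSC, at a median of 0.21.

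For the ERK feedback genes COV318-CTR showed no shared direction, with 3 of 17 called higher and 5 lower at a median of -0.30. Of all genes there 6.0% were called higher and 6.73% lower. DUSP6 had 2802 normalized counts in adherent cells and 2277 in spheres there, and SPRY4 had 827 normalized counts in adherent cells and 835 in spheres. ETV5 had 2916 normalized counts in adherent cells and 3266 in spheres. Spheres of COV318-MGP thus reached a lower level of DUSP6, SPRY4 and ETV5 than either COV318-CTR library, from a lower bulk level. ETV4 was the exception among these, with 479.6 normalized counts in COV318-MGP OCSC and 416 in COV318-CTR OCSC. In OVCAR3-CTR 11.5% of all counted genes were called higher and 7.43% lower, and in OVCAR3-MGPKO 5.83% and 4.58%. Of the ERK feedback genes 6 of 19 were called higher and 5 lower in OVCAR3-CTR, and 7 of 17 higher and 2 lower in OVCAR3-MGPKO. Of the 17 immediate early genes counted in each, 2 were called higher and 7 lower in OVCAR3-CTR, and 2 higher and 5 lower in OVCAR3-MGPKO. With 1 library a side, a difference between populations cannot be tested, and the populations share no library.

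**Figure D2:**
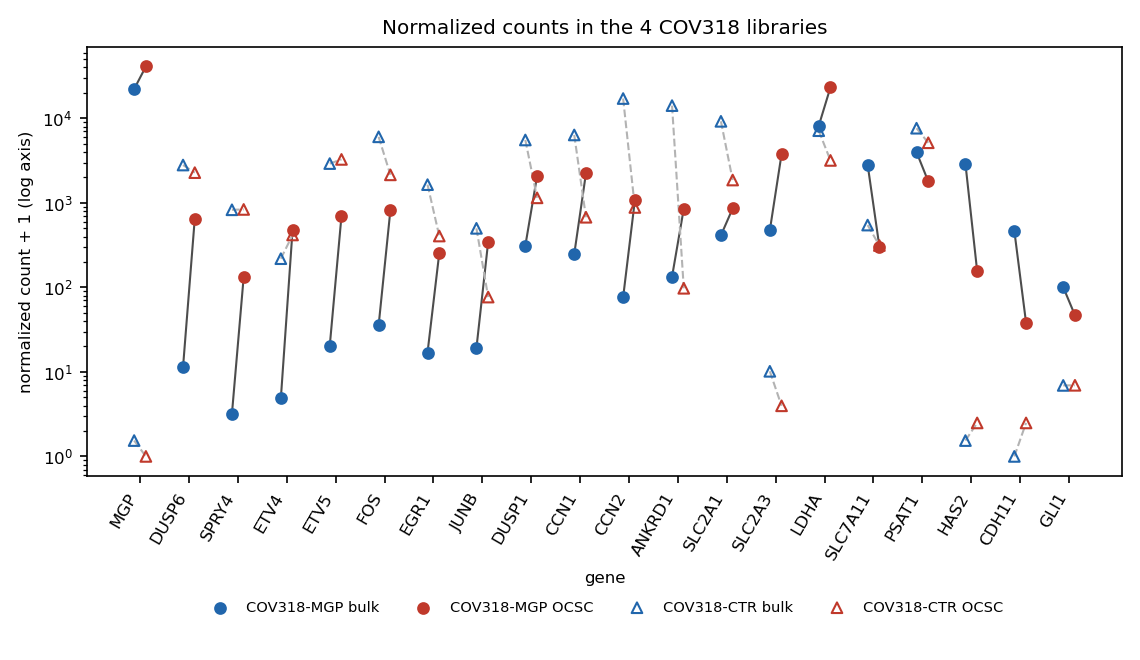
Normalized counts plus 1, on a log axis, of 20 genes in the 4 COV318 libraries, with circles for COV318-MGP, triangles for COV318-CTR, blue for bulk and red for OCSC. Solid lines join the COV318-MGP libraries and dashed lines those of COV318-CTR. FOS rises from 34.6 to 815 in COV318-MGP and goes from 6046 to 2144 in COV318-CTR.

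Targets of YAP and SRF leaned in opposite directions in the COV318 populations. In COV318-MGP 6 of 15 counted members were called higher and 1 lower, against 6.99% and 5.11% of all genes, at a median of 0.76. The 1 called lower was the junction protein AJUBA, at -1.06. In COV318-CTR 13 of 18 were called lower and 0 higher, against 6.73% and 6.0% of all genes, at a median of -2.25. CCN2, a secreted matricellular protein and a standard YAP target, had 137 counts in adherent cells against 748 in spheres (75.3 and 1071 normalized), a log2 ratio of 3.81 (3.56 to 4.10). In COV318-CTR it had 17157 normalized counts in adherent cells and 881 in spheres, a ratio of -4.28 (-4.40 to -4.17). CCN1, its relative, had 448 counts in adherent cells against 1564 in spheres (246 and 2239 normalized) and a ratio of 3.18 (3.03 to 3.34), against -3.24 (-3.38 to -3.10) in COV318-CTR. ANKRD1, a nuclear ankyrin protein under YAP and TEAD, had 241 counts in adherent cells against 596 in spheres (133 and 853 normalized) and a ratio of 2.68 (2.47 to 2.91). In COV318-CTR ANKRD1 had 14143 normalized counts in adherent cells and 96.6 in spheres, a ratio of -7.18 (-7.57 to -6.84). The actin-binding genes TPM2 and CNN2 were called higher, at 1.21 and 1.19, while THBS1 was under the filter with 33 and 19 counts. With library totals as the scale, 3 of the 15 members were called higher and 2 lower.

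TEAD factors bring YAP to DNA at sites that contain GGAATG, and the promoters of the 2 called members with such a match are shown because both genes were called in opposite directions in the COV318 populations. Of 13 counted members with a RefSeq promoter 4 held GGAATG on either strand, or 30.8%, against 14.0% of all promoters. Of the 5 called higher that had an entry, 2 held it. The CCN2 promoter (chr6:131951323-131951622, minus strand) and the ANKRD1 promoter (chr10:90921038-90921337, minus strand) are given 5′ to 3′ with each match in capitals. CCN2 holds 3 matches, of which the nearest begin 104 and 95 bases before the start, and ANKRD1 holds 2.
CCN2: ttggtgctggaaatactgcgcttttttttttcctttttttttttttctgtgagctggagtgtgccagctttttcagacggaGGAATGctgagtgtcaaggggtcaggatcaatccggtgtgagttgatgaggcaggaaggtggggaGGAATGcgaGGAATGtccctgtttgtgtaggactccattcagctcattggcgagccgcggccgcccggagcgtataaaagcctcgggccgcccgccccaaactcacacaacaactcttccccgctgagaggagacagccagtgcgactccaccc
ANKRD1: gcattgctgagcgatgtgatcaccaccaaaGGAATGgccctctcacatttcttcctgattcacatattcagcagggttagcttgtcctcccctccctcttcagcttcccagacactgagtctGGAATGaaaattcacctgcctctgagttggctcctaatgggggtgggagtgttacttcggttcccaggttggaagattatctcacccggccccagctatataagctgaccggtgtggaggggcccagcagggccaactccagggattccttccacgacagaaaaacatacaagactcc

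Part of the hypoxia targets and glycolytic enzymes was higher in COV318-MGP spheres. Of 33 counted members 16 were called higher and 0 lower, against 6.99% and 5.11% of all genes. In the list 17 had no call, 30 had a positive ratio, and the median was 0.90. SLC2A3, the glucose transporter GLUT3, had 858 counts in adherent cells against 2635 in spheres (472 and 3772 normalized), a log2 ratio of 3.0 (2.89 to 3.11). SLC2A1, the transporter GLUT1, had 749 counts in adherent cells against 599 in spheres (412 and 857 normalized) and a ratio of 1.06 (0.90 to 1.21). LDHA, which turns pyruvate into lactate, had 14809 counts in adherent cells against 16277 in spheres (8145 and 23301 normalized) and a ratio of 1.52 (1.48 to 1.55). ANKRD37, a HIF target of unsettled function, had 66 counts in adherent cells against 328 in spheres (36.3 and 469.5 normalized) and a ratio of 3.66 (3.31 to 4.10). ADM, the peptide adrenomedullin, went from 123 to 779 normalized counts, a ratio of 2.66 (2.44 to 2.90), and NDRG1, a stress-induced gene, from 1647 to 5682 normalized counts, a ratio of 1.79 (1.72 to 1.86). SLC2A1 was near the threshold, and SLC2A3, ANKRD37 and ADM were several-fold higher. VEGFA and CA9, standard hypoxia markers, were not called. VEGFA, an angiogenic growth factor, had a ratio of -0.17 (-0.30 to -0.05), and CA9, a carbonic anhydrase with strict HIF dependence, had 0 counts in bulk and 4 in OCSC, where the 0 allows up to 3 counts. The list depended on the scaling, with 12 of 33 called higher under the TMM factors and 10 under library totals, and 12 had their whole interval above 1.

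In COV318-CTR the list leaned the other way, with 0 of 32 called higher, 10 lower and a median of -0.53, against 6.0% and 6.73% of all genes. LDHA had 7144 normalized counts in adherent cells and 3177 in spheres there, a ratio of -1.17 (-1.24 to -1.10), and SLC2A1 had 9219 normalized counts in adherent cells and 1862 in spheres, a ratio of -2.31 (-2.39 to -2.22). SLC2A3 and NDRG1 were both under the filter in COV318-CTR. In OVCAR3-CTR 3 of 30 members were called higher, near the 11.5% of all genes there, and 1 lower, beside 7.43%. In OVCAR3-MGPKO 0 of 32 were higher and 3 lower, beside 5.83% and 4.58% of all genes.

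HIF factors bind a short core that starts with A or G before CGTG. The search used NCGTGC, which takes any first base and requires a C at the end, and is thus not the core itself. It takes strings outside the core and misses cores followed by another base, such as the unmarked acgtgg in the LDHA promoter below. Of 29 counted members with a RefSeq promoter 14 held it on either strand, or 48.3%, against 29.7% of all promoters, and of 13 called higher with an entry 7 held it. So short a motif is common in CpG-rich promoters and a match is no sign of binding. The promoter of LDHA (chr11:18394313-18394612, plus strand) is shown because it belongs to a called member and both of its matches, in capitals, read ACGTGC on the opposite strand and so hold the core.
LDHA: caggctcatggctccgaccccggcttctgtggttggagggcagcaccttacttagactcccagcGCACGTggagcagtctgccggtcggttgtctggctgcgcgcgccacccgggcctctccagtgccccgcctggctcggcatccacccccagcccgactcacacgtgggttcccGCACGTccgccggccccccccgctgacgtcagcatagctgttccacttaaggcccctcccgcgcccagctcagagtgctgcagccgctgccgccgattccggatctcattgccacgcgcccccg

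Genes of the amino acid response, which ATF4 drives when amino acids are short or the endoplasmic reticulum is stressed, were the listed group with most lower calls. Of 30 counted members 9 were called lower, against 5.11% of all genes, and 2 higher, near the 6.99% of all genes, at a median of -0.63. SLC7A11, the cystine importer that feeds glutathione synthesis, had 5156 counts in adherent cells against 212 in spheres (2836 and 303 normalized), a log2 ratio of -3.22 (-3.43 to -3.03). CHAC1, which degrades glutathione, had 491 counts in adherent cells against 42 in spheres (270.0 and 60.1 normalized) and a ratio of -2.15 (-2.66 to -1.71). STC2, a secreted stress glycoprotein, fell from 2384 to 910.5 normalized counts, a ratio of -1.39 (-1.51 to -1.27), and PSAT1, an enzyme of serine synthesis, from 3983 to 1792 normalized counts, a ratio of -1.15 (-1.24 to -1.07). SLC7A11 and CHAC1 thus had larger ratios in size than PSAT1 and STC2, with intervals that did not meet. TRIB3, a pseudokinase induced by ATF4, stood at the threshold with -1.01 (-1.22 to -0.81). The 2 members called higher were DDIT4, an inhibitor of mTORC1 that hypoxia also induces, at 1.32 (1.26 to 1.38), and GDF15, a stress cytokine, at 3.92 (3.35 to 4.79). ASNS, the asparagine synthetase, had 99 and 60 counts and a ratio of 0.65 (0.17 to 1.13), which is uncertain beside its pseudogene. In COV318-CTR 2 of 28 members were called higher and 3 lower, at a median of 0.00, beside 6.0% and 6.73% of all genes. In OVCAR3-CTR 27 of 32 were called lower, against 7.43% of all genes, at a median of -1.87. In OVCAR3-MGPKO 4 of 30 were called lower, beside 4.58% of all genes. SLC7A11 had 545 normalized counts in adherent cells and 312 in spheres in COV318-CTR. The level in spheres was thus alike in both populations (303 and 312), and the level in adherent cells was higher in COV318-MGP.

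Among cytosolic heat shock genes 4 of 12 counted were called higher and 0 lower, against 6.99% and 5.11% of all genes, at a median of 0.50. DNAJB1, a co-chaperone of HSP70, had 1830 counts in adherent cells against 3419 in spheres (1006 and 4894 normalized), a ratio of 2.28 (2.20 to 2.36). HSP90AA1, the inducible HSP90, had a ratio of 1.46 (1.44 to 1.49) and HSPB1, a small heat shock protein, one of 1.76 (1.51 to 2.03). HSPA1B had 146 and 211 counts and HSPA1A had 0 in all 4 COV318 libraries (1 to 10 in the OVCAR3 libraries), and the near-identical sequence of the pair makes the level of either uncertain. HSPA6 was called higher in both COV318 populations, at 5.98 (5.57 to 6.57) and 6.39 (5.67 to 8.06). Its adherent levels were 19.8 and 3.77 normalized counts, so in both populations a higher call followed from passing the filter on the mean. Endoplasmic reticulum chaperones moved little, with 1 of 21 called higher, HSPA5 (BiP) at 1.02 (0.99 to 1.05), and 0 lower.

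The matrix and adhesion genes were mixed, beside 6.99% of all genes called higher and 5.11% lower. Of 18 counted matrix glycoproteins and crosslinking enzymes 4 were called higher and 0 lower, at a median of 0.26. In COV318-CTR 11 of 20 were called lower, against 6.73% of all genes there, at a median of -1.18. FN1, fibronectin, had 5650 counts in adherent cells against 5450 in spheres (3107 and 7802 normalized), a log2 ratio of 1.33 (1.27 to 1.38), and in COV318-CTR it had 13351 normalized counts in adherent cells and 739 in spheres, a ratio of -4.17 (-4.31 to -4.05). TNC, tenascin C, was called higher in both populations, at 1.19 and 2.32. Of 16 counted collagens 2 were called higher, COL12A1, which went from 56.1 to 726 normalized counts, at 3.67 (3.38 to 4.01) and COL1A1 at 1.0 (0.64 to 1.37). Of 13 counted proteases and inhibitors 3 were called higher, the metalloproteinase inhibitor TIMP1 at 1.67 (1.58 to 1.78), the aggrecanase ADAMTS1 at 1.99 (1.93 to 2.05) and the gelatinase MMP2 at 1.54 (1.18 to 1.92). ADAMTS1 was well expressed, going from 1972 to 7852 normalized counts, and MMP2 was low, going from 66.0 to 193 normalized counts. Integrins and laminins gave 1 higher call, LAMA5 at 1.43, and 2 lower, ITGA8 at -1.54 and ITGA4 at -1.04, among 23 counted. The counts of integrins and laminins were near the shares of all genes.

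Few keratin and junction genes were expressed in COV318-MGP. Of 23 listed, 7 were counted, of which 4 were called higher and 0 lower, beside 6.99% and 5.11% of all genes. In COV318-CTR 16 were counted, with 3 higher and 6 lower, beside 6.0% and 6.73% of all genes there. KRT18, with KRT8 the keratin pair of simple epithelia, had 2573 counts in adherent cells against 4810 in spheres (1415 and 6886 normalized), a ratio of 2.28 (2.21 to 2.35). KRT8 had 556 counts in adherent cells against 983 in spheres (306 and 1407 normalized), a ratio of 2.20 (2.05 to 2.35). In COV318-CTR the ratios of the pair were -2.45 (-2.51 to -2.39) and -2.03 (-2.33 to -1.75). DSP and JUP, desmosomal proteins, were just past the call, at 1.02 and 1.03, and CDH1, E-cadherin, was not called, at -0.69 (-1.03 to -0.38). Of 10 counted genes of epithelial-mesenchymal transition, SNAI2, a repressor of E-cadherin, and CDH11 were called lower, at -1.08 and -3.61, and FN1 higher. ZEB1 had a ratio of 0.47 (0.34 to 0.59) and CDH2, N-cadherin, one of 0.20 (0.15 to 0.26).

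In the surface and ALDH list, markers used for stem-like cells were called about as often as all genes, of which 6.99% were higher and 5.11% lower. Of its 13 counted cancer stem cell surface and ALDH genes 1 was called higher, L1CAM at 1.38 (0.96 to 1.83), and 1 lower, LGR5 at -1.68 (-2.0 to -1.40). LGR5, the R-spondin receptor, had 891 counts in adherent cells against 106 in spheres (490.0 and 152 normalized), and its ratio in COV318-CTR was 2.49 (2.35 to 2.63). PROM1 (CD133) had 6 counts in adherent cells and 0 in spheres, where 0 allows up to 3, CD44 had 6 and 25, and ALDH1A1 had 50 and 8, all under the filter. Of 9 counted pluripotency and oncofetal genes 2 were called higher, KLF4 and SALL4, the latter at 1.65 (1.30 to 2.03). SOX2 had a ratio of -0.81 (-1.23 to -0.42) and LIN28B one of -0.11 (-0.19 to -0.03), and POU5F1 had 0 counts in both libraries, which allows up to 3 in each. Of 7 counted drug efflux transporters 0 were called, ABCB1 having a ratio of 0.90 (0.69 to 1.12).

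The other signaling lists gave between 1 and 6 calls each, beside 6.99% of all genes called higher and 5.11% lower. The higher calls of the Notch list and of the TGF-beta and BMP list were near that share and are no result about those lists. In the WNT list 4 of 24 counted genes were called lower and 1 higher, at a median of -0.43. The ligand WNT5A fell from 978 to 359 normalized counts, a ratio of -1.44 (-1.64 to -1.25), the receptor FZD6 had one of -1.45 (-1.67 to -1.24), and the inhibitor DKK3 and the receptor TNFRSF19 were just past the call, at -1.05 and -1.05. TCF7, a nuclear partner of beta-catenin, was called higher at 1.22, and the targets AXIN2 and LEF1 were not called, at 0.43 (0.22 to 0.64) and 0.60 (0.42 to 0.78). Of 15 counted Notch genes 1 was called, the target HES4, at 1.65 (1.41 to 1.91). The TGF-beta and BMP list gave 2 higher calls among 27 counted, the ligand TGFB1 at 1.78 (1.51 to 2.06) and the BMP target ID1 at 1.26 (1.02 to 1.52). In COV318-CTR 14 of 26 were called lower and 1 higher, beside 6.73% and 6.0% of all genes there. ID1 had a ratio of -3.02 (-3.18 to -2.86) in COV318-CTR. Of 17 counted targets of steroid, retinoid and thyroid hormones 6 were called higher, among them the clock gene PER1 at 2.24 (2.05 to 2.44), the retinoic acid receptor RARA at 1.45 and the kinase SGK1 at 1.34. DUSP1, a phosphatase of the stress kinases, had 565 counts in adherent cells against 1446 in spheres (311 and 2070.0 normalized), a ratio of 2.73 (2.59 to 2.88), against -2.27 (-2.38 to -2.17) in COV318-CTR. The glucocorticoid targets FKBP5 and KLF9 had ratios of 0.08 and -0.12 and were not called.

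Among metabolic and redox genes, 2 of 24 counted sterol genes were called higher, HMGCS1 and MSMO1, at 1.22 and 1.25, and the list's median was -0.26. Over all genes 6.99% were called higher and 5.11% lower, so the sterol count was near that share, as was that of the fatty acid genes. FASN, fatty acid synthase, was the 1 call among 15 fatty acid genes, at 1.07 (0.97 to 1.17). ABCA1 and ABCG1, LXR-driven exporters of cholesterol, were called higher, at 2.04 (1.89 to 2.21) and 1.16 (0.91 to 1.43). Of 18 counted NRF2 targets, metallothioneins and selenoproteins 6 were called higher and 1 lower, SLC7A11. SELENOW, a small selenoprotein, had 646 counts in adherent cells against 1218 in spheres (355 and 1744 normalized), a ratio of 2.29 (2.16 to 2.43), GPX1 had one of 1.72 (1.58 to 1.87) and GPX3 one of 1.77 (1.48 to 2.08), and all 3 were also called higher in COV318-CTR, at 1.05, 1.30 and 3.79. The metallothionein MT2A went from 49.0 to 228 normalized counts, a ratio of 2.19 (1.83 to 2.61). NQO1 and HMOX1, the usual NRF2 reporters, were not called, at 0.75 (0.46 to 1.06) and -0.20 (-0.46 to 0.05). The ferritin chains FTH1 and FTL were called higher, at 1.21 (1.14 to 1.27) and 1.11 (1.06 to 1.16), the iron exporter SLC40A1 lower, at -1.72 (-2.26 to -1.26), and the transferrin receptor TFRC was not called, at -0.76 (-0.84 to -0.68). Of 19 counted lysosome and autophagy genes 4 were called higher, GABARAPL1, MAP1LC3B, ULK1 and TFE3, at 1.70, 1.57, 1.31 and 1.27.

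Proliferation genes differed little between the cultures. Of 28 counted genes of G2 and mitosis 0 were called in either direction, at a median of 0.15 and a range of -0.93 to 0.98. MKI67 had 4730 counts in adherent cells against 3252 in spheres (2601 and 4655 normalized) and a ratio of 0.84 (0.77 to 0.90), and TOP2A had a ratio of 0.25 (0.22 to 0.28). Of 31 counted genes of G1 and S phase 2 were called higher, TYMS and CDT1, at 1.31 and 1.08, and the median was -0.22. That count was near the 6.99% of all genes called higher, beside 5.11% called lower. PCNA, the replication clamp, had a ratio of -0.65 (-0.71 to -0.59) and CCND1, cyclin D1, one of -0.49 (-0.69 to -0.30). All 32 counted cytosolic ribosomal protein genes had a positive ratio, from 0.24 to 1.08, at a median of 0.61, with 1 of 32 called, RPLP1, and 0 with the TMM factors or library totals. Ribosomal protein and ferritin genes have many processed pseudogenes that can share reads, which makes the level of any single member uncertain. In COV318-CTR the median of this list was -0.60. Of 27 counted nuclear genes of the respiratory chain 0 were called, at a median of 0.13, and of 13 replication-dependent histones 1 was called lower, H2AC20 at -1.21. Among 20 counted p53 targets and apoptosis genes 3 were called higher, GDF15, BBC3 and BCL2, and 1 lower, the BH3-only gene HRK at -1.91 (-2.19 to -1.66), while CDKN1A had a ratio of -0.22 (-0.38 to -0.05). In the interferon list 8 of 28 genes were counted and 1 was called lower, IFIT1 at -1.32. Of 7 counted cytokine and NF-kappaB genes 3 were called higher, RELB, NFKB2 and TNFAIP3, at 2.20, 1.17 and 1.07, and of 10 counted neuronal and glial genes 0 were called.

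**Figure D3:**
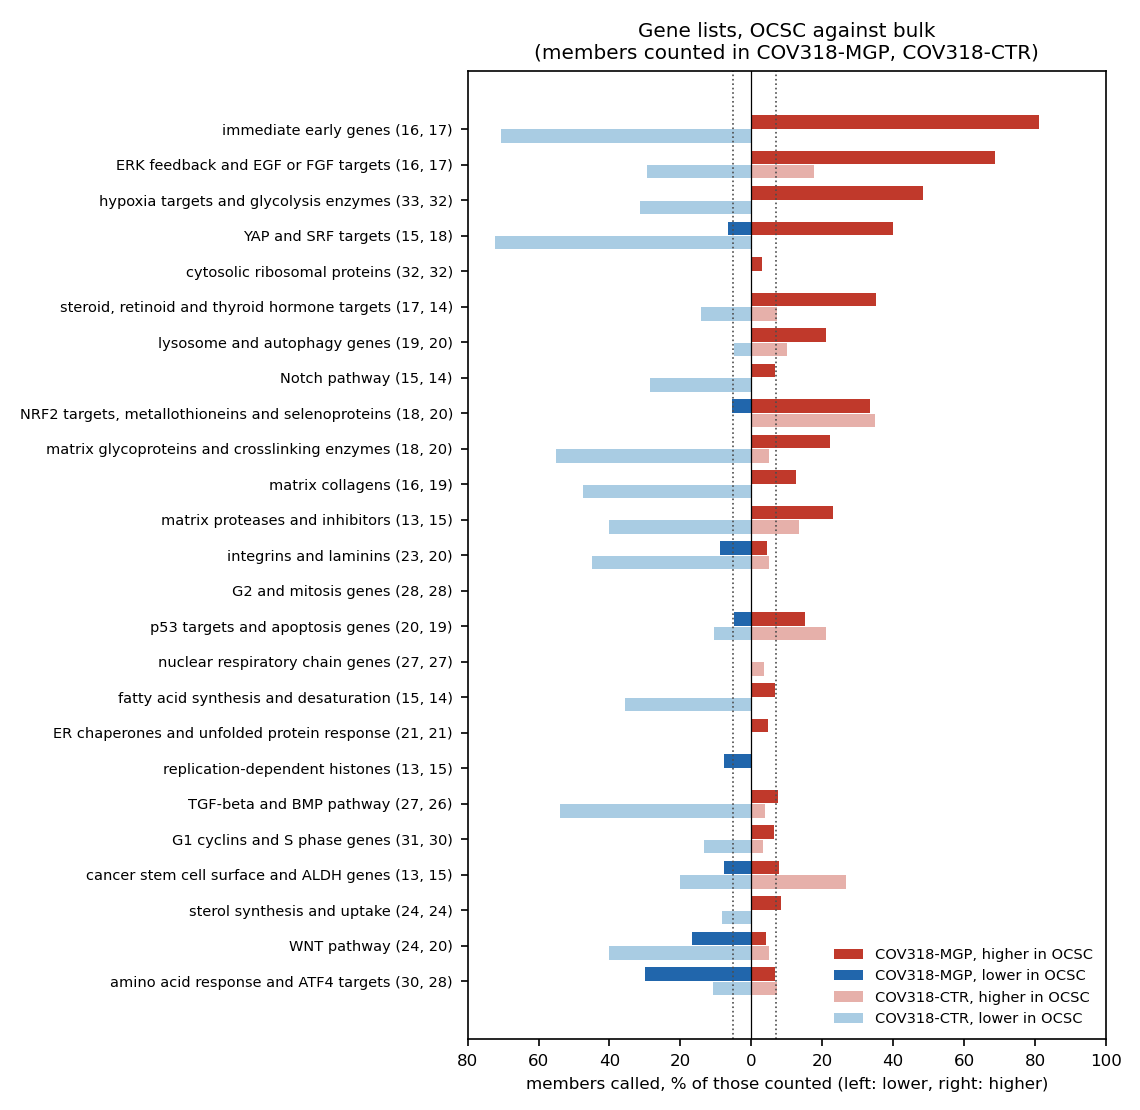
Share of the counted members of each list called higher (right of 0) and lower (left of 0) in OCSC, in dark bars for COV318-MGP and pale bars for COV318-CTR, with the number counted in each population in brackets and lists ordered by their median in COV318-MGP. Dotted lines mark the shares over all genes in COV318-MGP, 6.99% and 5.11%. Immediate early genes reach 13 of 16 higher in COV318-MGP and 12 of 17 lower in COV318-CTR.

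Gene by gene, most genes had no call in COV318-CTR, whatever their call in COV318-MGP. The share without a call there was 77.3% for genes called higher in COV318-MGP and 88% for those called lower. For genes with no call in COV318-MGP it was 91.2%. Among 10736 genes counted in both, 459 (4.28%) were called higher in COV318-CTR and 588 (5.48%) lower, and 656 were called higher in COV318-MGP, of which 62 were also higher in COV318-CTR, 87, or 13.3%, were lower there and 507 had no call. Of 466 called lower in COV318-MGP, 26 were lower in COV318-CTR, 30 were higher and 410 had no call. The 62 genes higher in both were 9.45% of the higher calls in COV318-MGP and 13.5% of those in COV318-CTR. Ranked by the smaller of the ratios in size, the first 8 genes called in opposite directions were CCN1, CCN2, ANKRD1, JUNB, FOSB, COL12A1, CPA4 and GADD45B, and all 8 were higher in COV318-MGP spheres. CPA4, a secreted carboxypeptidase, had ratios of 3.55 (2.99 to 4.37) in COV318-MGP and -2.82 (-3.81 to -2.09) in COV318-CTR. GADD45B, a stress sensor of the GADD45 family, had 3.62 (3.38 to 3.89) and -2.59 (-2.88 to -2.33).

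Genes called alike in both populations were led by HSPA6, SNORD133, SCARNA10 and ND1 on the higher side. On the lower side they were PDE4B, SULF1, ACADL and RNF144B. PDE4B, a cyclic AMP phosphodiesterase, had nearly equal ratios of -2.08 (-2.61 to -1.62) and -2.05 (-2.51 to -1.65). SULF1, which trims heparan sulfate and thereby tunes FGF binding, had -1.68 (-1.84 to -1.54) and -3.53 (-3.74 to -3.33). ACADL, an acyl-CoA dehydrogenase, had -1.62 and -2.96, and RNF144B, a ubiquitin ligase, had -1.59 and -2.01.

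**Figure D4:**
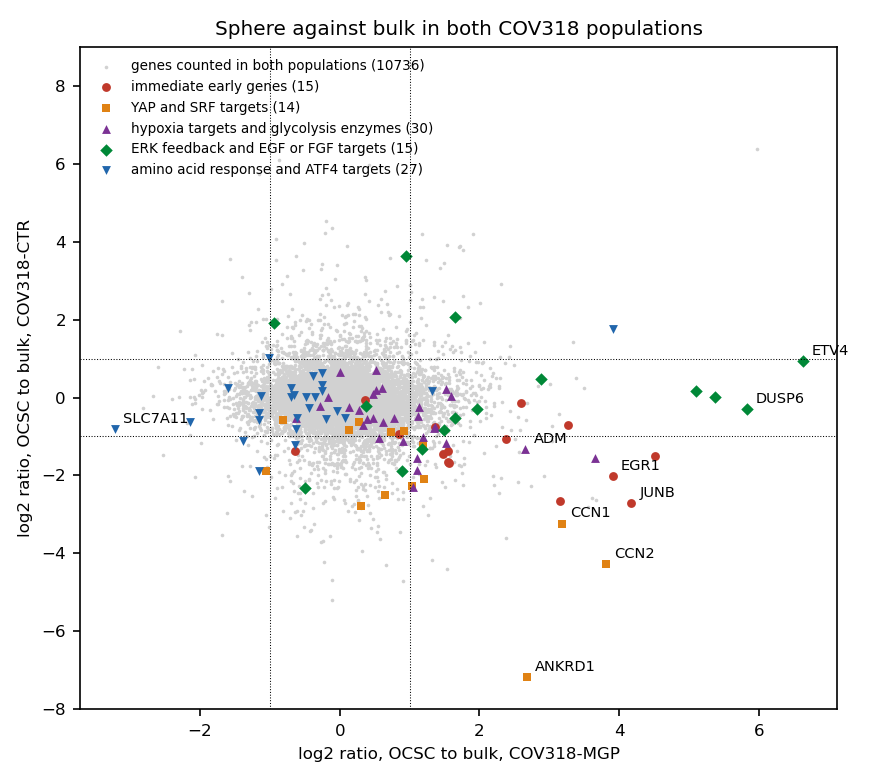
Log2 ratio of OCSC to bulk in COV318-MGP against that in COV318-CTR for the 10736 genes counted in both, with members of 5 lists coloured and dotted lines at the call. ANKRD1, CCN2 and CCN1 sit at the lower right, at 2.68 and -7.18, 3.81 and -4.28, and 3.18 and -3.24. ETV4 and DUSP6 lie far right, with COV318-CTR ratios of 0.93, just under the call, and -0.30.

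The composition of the libraries moved with the comparison. The 10 most abundant genes took 4.62% of the counts of COV318-MGP bulk and 10.7% of those of OCSC, and 333 small noncoding RNA genes took 2.82% and 7.55%. RN7SK alone took 1.45% and 4.59%. The ratio was higher in genes of higher GC content, with a rank correlation of 0.21 over 11725 genes from the same pair of libraries, and of -0.03 for transcript length. Among genes of at most 40% GC the median log2 ratio was -0.11 and 3.39% were called higher, and among those over 60% GC it was 0.30 and 11.7% were called higher. In COV318-CTR the median went from -0.08 to -0.29 between the same classes. The median GC content was 55.6% for immediate early genes, 52.7% for hypoxia targets, 49.4% for ERK feedback genes and 52.1% for amino acid response genes, against 47.1% over all counted genes. With each ratio centred on the median of its GC class, an alternative chosen after seeing the data, 12 of 16 immediate early, 11 of 16 ERK feedback, 14 of 33 hypoxia and 6 of 15 YAP and SRF genes were called higher and 9 of 30 amino acid response genes lower. The part of composition and GC content in the single ratios was not tested beyond this centring.

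**Figure D5:**
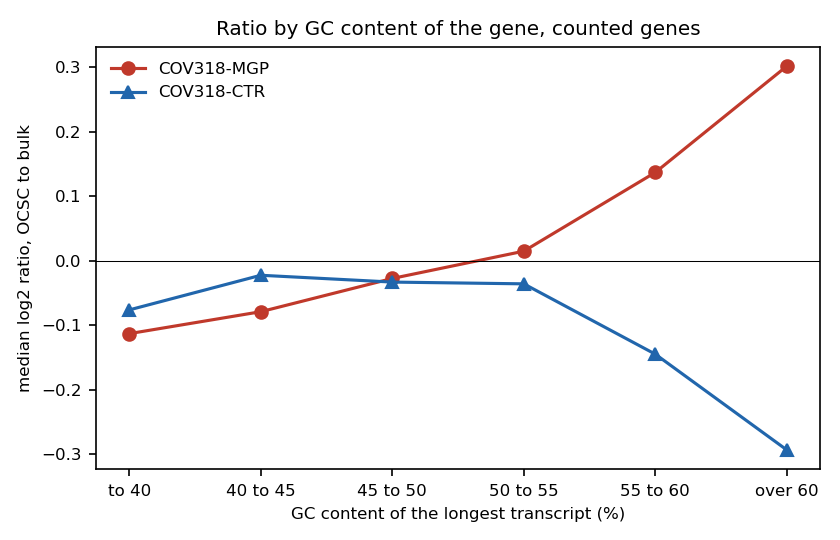
Median log2 ratio of OCSC to bulk for counted genes in 6 classes of GC content of the longest transcript, with circles for COV318-MGP and triangles for COV318-CTR. The median rises from -0.11 to 0.30 in COV318-MGP and goes from -0.08 to -0.29 in COV318-CTR.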

How the data were processed

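RNA-seq was analysed in COV318-MGP bulk and OCSC, 2 of 8 libraries, with the other 6 for values set beside them. The authors aligned paired reads to hg38 with STAR (2.7.5c in the submitters' processing notes) and deposited raw counts per gene. They also deposited a normalized signal, the count divided by the DESeq2 size factor. Several TruSeq kits, stranded and capture-based, are named without assignment to libraries, and the annotation and the strand setting of the counting are not given in the sources used here, so overlapping and antisense genes are uncertain. Withheld items are not reported here.

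The size factors, a median of ratios over the 15518 genes above 0 in all 8 libraries, were computed anew and gave the deposited values. Ratios used a pseudocount of 1, a minimum mean of 50 and a floor of 3 counts. The 45 gene lists and the genes to name were chosen with earlier results of these data known, and 1 list of mitochondrial transcripts matched no symbol. Named genes are MGP, GLI1, the 10 called higher and 10 lower with the interval bound farthest from 0, each list's key members and up to 5 called members by that bound, and the 8 opposite and 4 plus 4 alike genes between the COV318 populations. AJUBA, DPPA4, EMX2, INA, KRT7, NEFM, PAX8, RN7SK and SOX17 were named after their values were seen. Alternatives were edgeR TMM factors, CPM, size factors from 2 libraries, pseudocounts of 0.5 and 5, other filters and thresholds, thinning of bulk to the OCSC total and centring on GC. The calculation was tested on simulated counts with known changes. Tools were Python 3.11.15, numpy 2.4.6, pandas 2.3.3, scipy 1.17.1, matplotlib 3.10.9, R 4.3.3 and edgeR 4.0.16 (TMM only).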

Additional observations from a re-analysis of the deposited data

Results flagged for a closer look

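In 32 named genes the call in COV318-MGP was opposite to that in COV318-CTR, and in 3 lists of at least 10 counted genes at least 30% of members were called in one direction in COV318-MGP and at least 30% in the other in COV318-CTR. Other lists leaned apart below that share. With 1 library a side the difference was not tested. Values are the log2 ratio of OCSC to bulk in COV318-MGP minus that in COV318-CTR. Among immediate early and related genes the difference was 6.88 for JUNB, 6.21 for GADD45B, 6.01 for FOS, 5.93 for EGR1, 5.8 for FOSB, 5.01 for DUSP1 and 2.94 for KLF4. Among YAP and SRF targets it was 9.86 for ANKRD1, 8.09 for CCN2, 6.41 for CCN1, 3.31 for TPM2 and 2.41 for CNN2. Matrix, protease and keratin genes gave 6.37 for CPA4, 6.29 for COL12A1, 5.94 for MMP2, 5.50 for FN1, 4.73 for KRT18, 4.22 for KRT8, 2.58 for LAMA5 and 2.15 for P4HA1. Hypoxia and metabolic genes gave 5.22 for ANKRD37, 3.99 for ADM, 3.36 for SLC2A1, 2.69 for LDHA and 2.31 for FASN. Signaling and survival genes gave 4.28 for ID1, 3.78 for HES4, 2.87 for HSPB1, 2.84 for GLI3 and 2.72 for BCL2. The difference had the other sign for LGR5, -4.17, and TRIB3, -2.01. The medians of the lists differed by 3.35 for immediate early genes, 3.01 for YAP and SRF targets and 1.44 for hypoxia targets and glycolysis enzymes.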

How the results depend on the processing

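The number of genes called higher and lower was 857 and 627 and moved by over 1.5 times where the filter or the call rule changed by construction. It was 2181 and 2032 with no filter on low counts, 1499 and 1046 with a minimum mean of 10 and 525 and 336 with a minimum of 200. It was 342 and 151 at a log2 ratio of 1.5, 140 and 45 at a ratio of 2, and 552 and 264 where the whole interval had to lie beyond 1. Library totals (CPM) gave 577 higher and 1142 lower, of which the second moved by over 1.5 times, and TMM factors gave 673 and 860. Centring on GC content, chosen after seeing the data, gave 696 and 568 among 11725 genes. Of 124 named genes that were called, 0 turned sign under any alternative, 110 kept the call with TMM factors, 102 with CPM and 118 with the bulk library thinned to the OCSC total. The median of the immediate early list stayed between 1.55 and 1.98 and that of the amino acid response list between -0.84 and -0.62. The medians of ribosomal protein genes, 0.40 with CPM and 0.61 here, and of lists within 0.21 of 0 depend on the scale. No paired analysis was possible because each condition has 1 library, and no replicate could be left out. OCSC depth limits low genes: 3 counts are 4.29 normalized counts in OCSC and 1.65 in bulk.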

Other observations

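The groups that follow were chosen after the values were seen and are given as values. Over all counted genes 6.99% were called higher and 5.11% lower in COV318-MGP, and 6.0% and 6.73% in COV318-CTR. Transcripts encoded in mitochondrial DNA, which carry subunits of the respiratory chain, were higher in COV318-MGP spheres in 9 of 13 genes and lower in 1, at a median log2 ratio of 1.44. ND1 had 1089 counts in bulk and 1571 in OCSC, a ratio of 1.91 (1.80 to 2.02), and 4.21 in COV318-CTR, where 11 of 12 were higher at a median of 3.39. The gene called lower was ND6, with 3169 counts in bulk and 275 in OCSC, a ratio of -2.14. Of 27 nuclear genes of the respiratory chain 0 were called.

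Of 399 counted genes named ZNF, most of them zinc finger repressors, 74 were called lower and 4 higher, at a median of -0.41, against 6 lower and 13 higher of 458 in COV318-CTR. Their median GC content was 43.3%. Small nucleolar and Cajal body RNAs were called higher in 83 of 142 counted and lower in 1, at a median of 1.12, and in COV318-CTR 31 of 115 were higher and 1 lower. Of 274 counted antisense and LINC genes 35 were called lower and 19, a share near that of all genes, higher. In COV318-CTR 23 of 361 of these were lower and 31 higher, near the shares of all genes there. Of 12 AP-1 and ATF leucine zipper genes, several of them among the immediate early genes, 10 were called higher and 0 lower. Their median was 2.20 against -1.09 in COV318-CTR. Of 206 counted solute carriers 23 were called lower and 3 higher in COV318-MGP. In COV318-CTR 11 of 194 were lower and 15 higher, near the shares of all genes there. HOX genes were counted in 30 of 38 cases in COV318-MGP and in 9 of 38 in COV318-CTR. Of the 30, 7 were called higher in spheres and 2, near the share of all genes, lower. Of the 9 in COV318-CTR, 3 were called higher and 0 lower. The amount of small noncoding RNA and the GC content of the genes moved with these groups, and their part was not tested.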
